A study of Mus musculus with 4 samples.

Results

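The Tns3 locus is the stretch of mouse chromosome 11 that holds the gene of tensin 3 and the DNA beyond its 5′ end. NR6A1 peaks were assigned to it when their midpoint lay between 8.32 and 8.65 Mb on the mm9 genome build, and this stretch was selected on the peak positions themselves, because it held many sites found in both replicates. It held 16 of the 21507 peaks of replicate 1 and 16 of the 16160 peaks of replicate 2. Overlapping peaks of the replicates were merged into regions, and 20 of 28444 regions lay here. Since the same peaks chose the locus, their number and position are given as a description and carry no test.

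Peaks came from chromatin immunoprecipitation followed by sequencing (ChIP-seq), in which DNA crosslinked to a protein is pulled down with an antibody and sequenced. The cells were immortalized mesenchymal stem cells of adult C57BL/6 mice, stromal cells that can give rise to bone, fat and cartilage cells. The labels call them Dicer wild type, with genotype Dicer f/f (both Dicer alleles floxed), and monoclonal, so the lines descend from single cells. The 2 NR6A1 libraries came from puromycin-selected cells with the retrovirus pMMP-puro-Flag-HA-NR6A1, and the 2 control libraries from cells with pMMP-puro-vector. Each of the 4 libraries is labelled with the same anti-HA antibody, which recognises the tag on the introduced NR6A1 and not the cells' own protein. Without values from the vector libraries, which were not analysed here, the peaks stand with no measure of the antibody's background. Nothing in the labels says that the replicates came from separate cultures.

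Tensin 3 is an adaptor protein of focal adhesions, the contacts through which a cell holds on to the extracellular matrix. Tensins bind the tails of integrin receptors and link them to actin filaments, and in fibroblast-like cells they take part in adhesion, matrix assembly and migration. NR6A1, also called germ cell nuclear factor, is an orphan nuclear receptor that binds DNA as a dimer and is known mainly as a repressor of transcription in the early embryo. Its preferred site is a direct repeat of the core hexamer of nuclear receptor sites, with no spacer between the repeats.

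The gene was taken to span about 8.33 to 8.56 Mb on mm9, as rounded values given with the definition of the locus. It lies on the minus strand per RefSeq, so its 5′ end is at the higher coordinate. Peaks above 8.56 Mb are called upstream, and peaks below it are called gene body. Exons and introns of mm9 were not analysed here. In the RefSeq gene table of build GRCm38.p6, used for gene order only, the next protein-coding gene on the upstream side is Pkd1l1, with the noncoding gene Gm36772 before it. On the 3′ side the next protein-coding gene is Igfbp3, which encodes an insulin-like growth factor binding protein.

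Neither list had a peak around the rounded 5′ end of Tns3, and the sequence before the start of transcription is shown for reference. It is the RefSeq promoter entry of Tns3, read on the minus strand at chr11:8664536-8664785 of GRCm38.p6, and it holds the 250 bases before the start. This position is on another build than the peaks and cannot be compared with their coordinates, so whether these bases lie in the stretch without peaks was not tested. Capitals mark the match to a spelling of this hexamer.
Tns3 promoter: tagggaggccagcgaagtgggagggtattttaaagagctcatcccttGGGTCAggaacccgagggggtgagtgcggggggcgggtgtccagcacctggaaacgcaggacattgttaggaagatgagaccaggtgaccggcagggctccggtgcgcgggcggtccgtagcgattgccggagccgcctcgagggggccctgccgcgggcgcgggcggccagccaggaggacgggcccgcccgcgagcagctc

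The letters AGGTCA, searched on both strands, were not in this window, and they were in 14.0% of the 32851 promoter windows of the same length. GGGTCA, a spelling of the hexamer added after the sequence had been seen, occurred at 1 place, on the strand of the gene, with its first base 203 bases before the start. It was in 11.6% of all windows, and one or the other of AGGTCA and GGGTCA was in 23.8%. Neither TCAAGGTCA, the extended hexamer, nor AGGTCAAGGTCA, the direct repeat without spacer, was in the Tns3 window. They were in 0.387% and 0.00609% of all windows, and each of these 2 motifs contains AGGTCA. The window was rich in G and C, at 69.6%, against a median of 52.4% over all windows.

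Between 8529339 and 8574644, a stretch of 45.3 kb around the 5′ end, neither replicate had a peak. On either side of it the peaks formed 2 unlike groups. Upstream, 7 regions found in both replicates lay within 31.1 kb, at 8574645 to 8605766, beginning 14.6 kb and ending 45.8 kb beyond the rounded end of the gene. Over the gene body, 5 regions found in both were strewn from 8338907 to 8529338. All scores of 1000 or more at the locus were upstream.

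**Figure D1:**
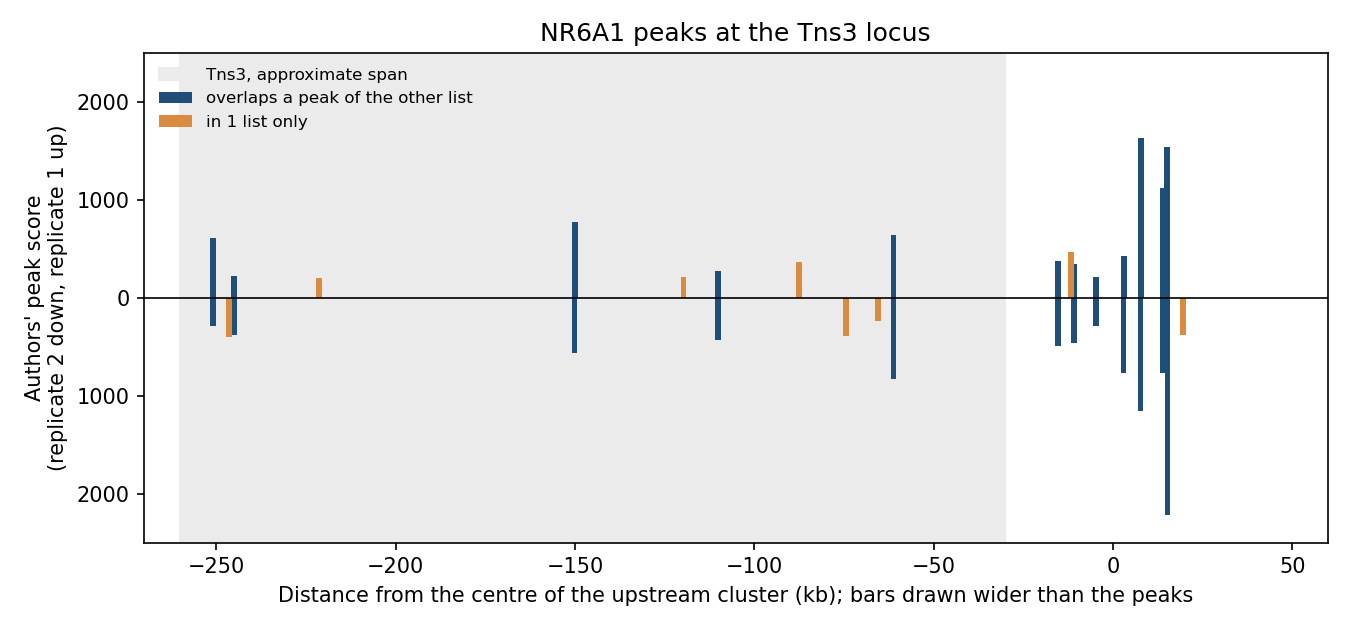
Score of each NR6A1 peak at the Tns3 locus (y axis, replicate 1 up and replicate 2 down) against its distance in kb from the centre of the upstream cluster (x axis), with the approximate gene in grey. The 8 upstream peaks of each replicate stand close together and hold every score of 1000 or more, and the 8 gene body peaks of each are spread out.

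The score of a peak is the authors' value, taken to be the log-transformed p-value of the peak caller MACS, so that a higher score stands for a smaller p-value. It runs from 200.01 to 3218.29 in replicate 1 and from 200.04 to 3219.64 in replicate 2. It depends on the depth and background of its own library, which are unknown. Some scores are therefore given with their percentile, the share of peaks of the same list that score lower.

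In both lists the 3 highest scores of the upstream cluster belonged to the 3 shared regions farthest from the gene. The outermost of them, at 8604940 to 8605766, scored 1539.05 in replicate 1 and 2218.59 in replicate 2, at percentiles 92.8 and 96.9 of the lists. Its inner neighbour, at 8603620 to 8604439, scored 1117.01 in replicate 1 and 772.5 in replicate 2. These 2 regions were separated by 545 bp in replicate 1 and by 508 bp in replicate 2, and both lists kept them as 2 peaks. Another strong region, at 8597519 to 8598276, scored 1629.26 in replicate 1 and 1152.79 in replicate 2, at percentiles 93.6 and 88.9. It was the highest peak of the locus in replicate 1 and the second highest in replicate 2.

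Next toward the gene lay the widest peak of the locus. At 8592202 to 8594070, replicate 2 had a peak of 1869 bp, wider than 99.6% of its list, with a score of 767.59. The partner in replicate 1 was 853 bp wide, wider than 89.8% of its list, and scored 429.54. It lay wholly inside the wide peak, with midpoints 37.0 bp apart. Whether the wide peak joins several sites cannot be seen from the lists, which give no summit.

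The 3 regions nearest the gene were of middling or low score in both lists. The one at 8585099 to 8585722 was the weakest of the cluster, with 213.84 in replicate 1 and 284.26 in replicate 2, at percentiles 5.1 and 28.6. The region at 8579110 to 8579730 scored 342.31 and 460.58, and the one at 8574645 to 8575244 scored 374.67 and 496.75, in replicates 1 and 2. In each of these 3 regions replicate 2 had the higher score, by 1.33 to 1.35 times. With library depth unknown, this is a ratio of scores and does not measure a difference in binding.

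**Figure D2:**
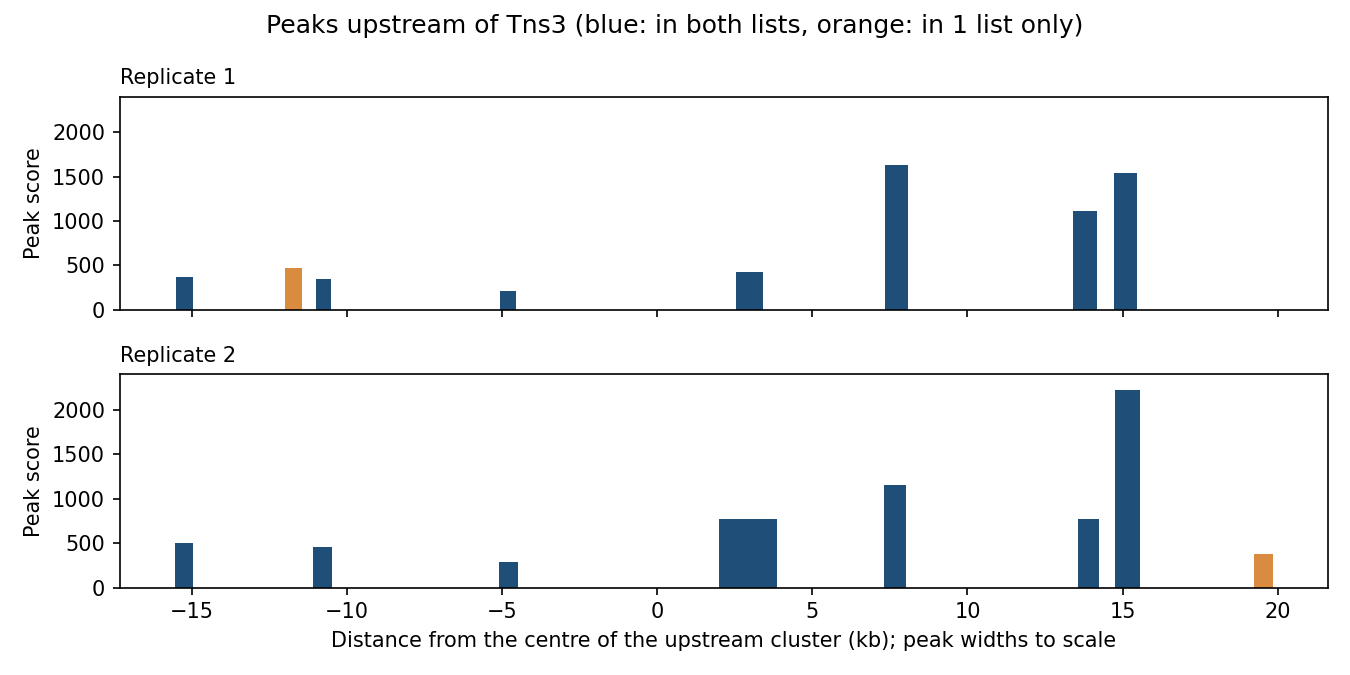
Peaks upstream of Tns3 in replicate 1 (top) and replicate 2 (bottom), drawn to scale in width, with the authors' score on the y axis and the distance in kb from the centre of the cluster on the x axis. The 7 blue positions recur in both lists, the 3 shared positions farthest from the gene have the highest scores in each list, and the replicate 2 peak of 1869 bp stands out by its width.

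Upstream peaks present in 1 list only were few. In replicate 1 there was 1, at 8578209 to 8578742, with a score of 467.87, above the median of its list (417). It ended 367 bp before a replicate 2 peak, so it lay close to a region found in both without touching it. In replicate 2 there was 1, at 8609439 to 8610042, with a score of 379.62, and it lay 3.67 kb beyond the outermost region of the cluster.

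Over the gene body no peak reached a score of 1000 in either list. The strongest region of replicate 1, at 8439749 to 8440423 near the middle of the gene, scored 771.7 there and 565.64 in replicate 2. The strongest of replicate 2 was at 8528695 to 8529338, the gene body region nearest the 5′ end, with 640.84 in replicate 1 and 828.01 in replicate 2. Its midpoints were 0.5 bp apart. These 2 regions were above the median score of both lists.

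The 3 other gene body regions ranked differently in the lists. Near the 3′ end, the region at 8338907 to 8339526 scored 608.69 in replicate 1 and 288.28 in replicate 2, at percentiles 67.8 and 29.8, and was the only pair of the locus more than 2-fold apart. Its neighbour at 8344732 to 8345366 went the other way, with 217.57 in replicate 1 and 375.79 in replicate 2, at percentiles 6.8 and 47.4. The region at 8479697 to 8480287 scored 271.71 and 431.1, at percentiles 23.1 and 55.0.

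A further 6 gene body regions were in 1 list only, 3 in each. Those of replicate 1 were at 8368518 to 8368943 (score 205.98), 8470254 to 8470616 (213.13) and 8502530 to 8502953 (370.46), all below the median of that list. Those of replicate 2 were at 8343453 to 8343903 (404.69), 8515382 to 8515968 (386.11) and 8524471 to 8524980 (239.1). Only the first of these was above the replicate 2 median of 393.6, and it lay 993 bp from the nearest replicate 1 peak. The lists give no reads, so absence from a list may also mean a score just below its minimum.

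Set side by side, the upstream part had more peaks per length and more of them in both lists. Each replicate had 8 peaks in the 90 kb upstream, or 8.89 per 100 kb, and 8 in the 230 kb of the gene body, or 3.48 per 100 kb, a ratio of 2.56 in both replicates. Regions found in both numbered 7 of 9 upstream and 5 of 11 (45.5%) in the gene body, and 31.7% of all regions of the lists were found in both. Per length, the regions found in both give a ratio of 3.58. The median gap between such regions was 4.60 kb upstream (0.50 to 6.48 kb) and 43.84 kb in the gene body (5.21 to 94.38 kb). The cluster of shared regions helped choose the locus and its division, so these ratios describe it and are not tested.

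Scores and widths were also higher upstream, in both replicates. The median upstream score was 448.7 in replicate 1 (213.84 to 1629.26) and 632.2 in replicate 2 (284.26 to 2218.59). In the gene body it was 321.1 (205.98 to 771.7) and 395.4 (239.1 to 828.01). The whole lists had medians of 417.0 and 393.6. As median percentiles of the lists, the upstream peaks stood at 53.7 in replicate 1 and 70.5 in replicate 2. The gene body peaks stood at 33.3 and 50.4, so the upstream median of replicate 1 was near the middle of its list. The upstream and gene body ranges overlapped in each list, with the weakest upstream peak near the bottom of the scale. Peaks of a score of 1000 or more numbered 3 of 8 upstream in replicate 1 and 2 of 8 in replicate 2, against 15.9% and 14.0% of the whole lists. Of the summed score of the locus, the cluster held 64.9% in replicate 1 and 61.2% in replicate 2. Median widths upstream were 644.0 bp in replicate 1 and 644.5 bp in replicate 2, and in the gene body 460.5 and 589.0 bp, beside 538.0 and 613.0 bp over the whole lists.

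All 8 upstream peaks of each replicate had another midpoint of their own list within 10 kb, and 4 of 8 gene body peaks of replicate 1 and 6 of 8 of replicate 2 did. Over the whole lists 47.2% of replicate 1 and 42.9% of replicate 2 peaks had such a neighbour. The gene body shares were thus near or above the lists' own. The upstream part was chosen for a cluster of shared regions with gaps of at most 10 kb. Its shares were thus all but fixed in advance, and nothing is read from them.

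In each list 12 of the 16 locus peaks, or 75.0%, overlapped a peak of the other (95% Wilson interval 50.5 to 89.8%, for counting error over peaks only). Over the whole lists the share was 42.7% in replicate 1 and 56.0% in replicate 2. Since shared regions chose the locus, nothing is read from the difference. By part, the share was 7 of 8 upstream and 5 of 8 in the gene body. It was the same in both replicates, since each pair counts once in either list. With 8 peaks in each part the intervals were 52.9 to 97.8% and 30.6 to 86.3%. For the same reason of choice they are not used to compare the parts.

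Partner peaks lay on nearly the same bases. Their midpoints were 0.5 to 100.0 bp apart, with a median of 35.2 bp, close to the 37.5 bp over all 9223 overlapping pairs of the lists, in which a peak that meets 2 peaks counts in 2 pairs. The offset of 100.0 bp belonged to the region at 8603620 to 8604439, where 80.0% of the replicate 1 peak was overlapped, the lowest share of the locus. In 7 of the 12 pairs the replicate 1 peak lay wholly within its partner. The replicate 2 peak was the wider in 8 of the 12, and the median ratio of widths (replicate 2 over replicate 1) was 1.15. Over all pairs these values were 70.6% and 1.14.

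Scores of partners were then compared by rank. Over the 12 pairs Spearman's rho was 0.85, over the 7 upstream pairs 0.96 and over the 5 gene body pairs 0.60, beside 0.38 over all pairs. These are descriptions across sites of 1 pair of libraries, the sites were not independent, and no p-value is attached. In 11 of 12 pairs the scores were within 2-fold of each other, against 65.4% of all pairs. The log2 ratio of replicate 1 over replicate 2 had a median of -0.41 and an SD of 0.63 over the 12 pairs (from -0.84 to 1.08). Over all pairs the median was 0.00 and the SD 1.12. Replicate 2 was the higher in 8 of 12, in 5 of 7 upstream and in 3 of 5 in the gene body, and the median ratio was smaller than the spread between pairs. With only the better-scoring 50% of each list, 6 regions in both were left and the median was 0.04, near equal scores. With lists of equal length, 9 were left and the median was -0.37. These are ratios of scores from libraries of unknown depth and do not measure binding.

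**Figure D3:**
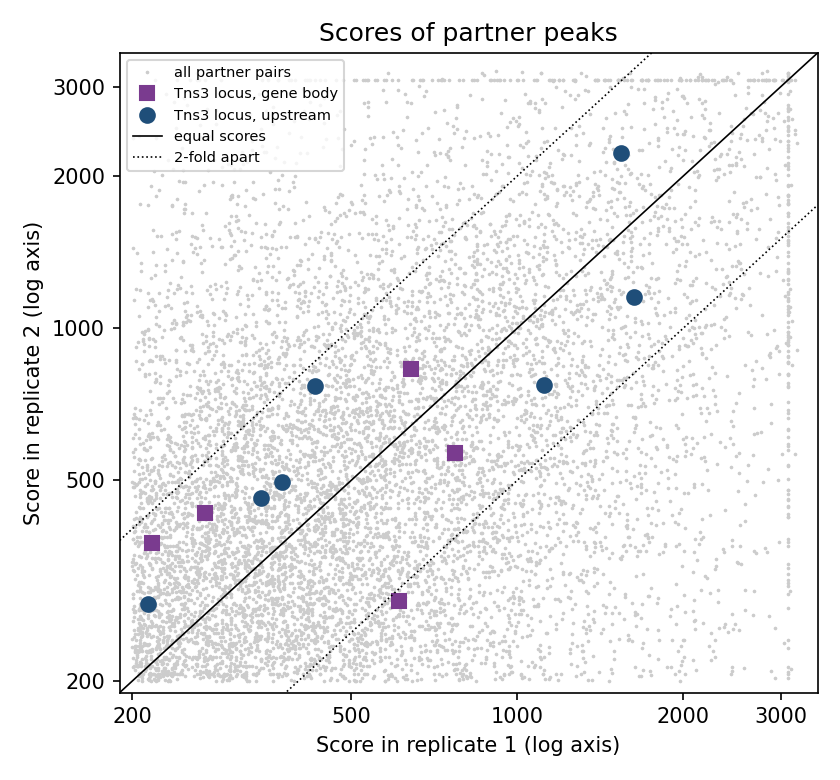
Score in replicate 2 against score in replicate 1, both on log axes, for the 12 partner pairs of the Tns3 locus (circles upstream, squares gene body) and for all overlapping pairs (grey). Of the locus pairs, 8 lie above the line of equal scores and 4 below it. All but 1 lie between the dotted lines of 2-fold difference, and that gene body pair, with 608.69 and 288.28, lies just past.

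Over the whole locus, peaks with a partner had higher median scores than those without. The medians were 519.1 for the 12 with a partner and 291.8 for the 4 without in replicate 1, and 531.2 and 382.9 in replicate 2. Upstream in replicate 1 the order was the other way, with a median of 429.5 for the 7 with a partner and 467.87 for the 1 without. The lists as a whole had medians of 520.8 and 363.1 in replicate 1 and of 510.0 and 314.2 in replicate 2. The highest score without a partner was 467.87 in replicate 1 and 404.69 in replicate 2, so every locus peak above these values was in both lists.

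As a stretch of the genome the locus was dense. When each placed chromosome was divided into tiles of 330 kb, the length of the locus, the median tile held 1 peak in either list. Tiles with 16 or more peaks made up 0.79% of 7981 tiles in replicate 1 and 0.39% of 7973 in replicate 2. Tiles also fall in unsequenced stretches, and the locus was chosen for its peaks, so these shares place it and test nothing.

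The upstream cluster was among the larger ones. Shared regions that followed each other within 10 kb formed 292 clusters of 3 or more, with a median of 3 regions and 11.1 kb. The cluster upstream of Tns3 had 7, 2 clusters had more and a further 8 had 6. With gaps of at most 5 kb the cluster upstream of Tns3 broke up, and no more than 2 of its regions stayed together. The 3 most like it in number of regions and then in span each held 6, over 29.8 to 32.1 kb, and lay at 69874914 to 69905120 (chromosome 14), 5786337 to 5818478 (chromosome 19) and 51665658 to 51695441 (chromosome 11). In replicate 1 their top scores were lower, from 1022.21 to 1346.06 against 1629.26, and their median scores higher, from 505.5 to 694.8 against 448.7. In replicate 2 the order of the medians was the other way. They were 726.1, 355.8 and 424.2, against 767.6 for the 7 peaks of the cluster upstream of Tns3. In replicate 2 the cluster on chromosome 14 reached 2677.24, above the 2218.59 upstream of Tns3, and the other 2 reached 1496.91 and 1535.06. In replicate 1, 3 peaks upstream of Tns3 scored 1000 or more, against 1 in each of these clusters. In replicate 2 there were 2, against 3 in the cluster on chromosome 14 and 1 in each of the others. No test of these differences was made.

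**Figure D4:**
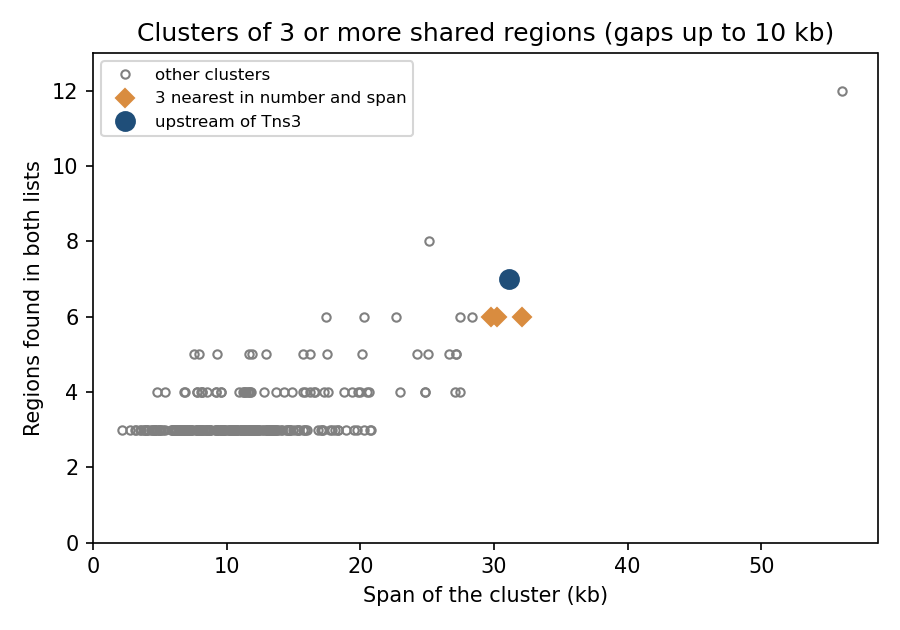
Number of regions found in both lists (y axis) against span in kb (x axis) for each of the 292 clusters of 3 or more such regions. The cluster upstream of Tns3, with 7 regions over 31.1 kb, lies next to the 3 diamonds with 6 regions over 29.8 to 32.1 kb, and 2 clusters hold more regions.

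Just outside the limits of the locus, the nearest replicate 1 peaks were at 8302321 to 8302885 (score 664.74) and 8661723 to 8662047 (214.29), neither with a partner. Those of replicate 2 were at 8265517 to 8266066 (431.1) and 8679363 to 8680045 (548.72), both with one. Just inside lay the regions at 8338907 to 8339526 and 8609439 to 8610042 given above. The borders thus fell in stretches without peaks in both lists, 17.4 and 11.9 kb from the nearest replicate 1 midpoints outside.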

How the data were processed

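The data were 2 deposited peak lists, 1 for each NR6A1 replicate, so the authors' peaks were called per sample. The submitters' processing notes name Bowtie 0.12.7, MACS and mm9 but not what each was used for. The control library, the threshold and read depth are not given in the sources used here. The authors' deposited score was read, from its range and its 2 decimals, as a log-transformed p-value of MACS, and is not comparable between libraries of unknown depth. Positions are printed with the first base as 1.

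Partner peaks shared at least 1 bp (Python 3.11.15, pandas 2.3.3, numpy 2.4.6, scipy 1.17.1, with the same counts from bedtools 2.31.1). The code was tested on simulated lists. The members, the division of the locus and the measures were chosen with earlier results of these data known. Every peak of the locus is named, and for likeness the 3 clusters nearest in number of regions and then in span. Motif search in peaks and a list of focal adhesion genes were not run, because no mm9 sequence or annotation was used. Alternatives were other partner definitions, score limits, cluster gaps, borders and single lists. The tile and neighbour measures and the GGGTCA spelling were added after seeing the data.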

Additional observations from a re-analysis of the deposited data

How the results depend on the processing

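Alternatives gave 23 values, of which 19 kept close to the reported one, 3 moved and 1 changed sign. Restricting both lists to their better-scoring 50% left 6 regions in both lists at the locus, against 12, with 4 of them upstream, and raised the upstream share of peaks from 50.0% to 61.1%. By construction it drops the weak members. In that setting the median log2 score ratio of partners was 0.04, against -0.41 as reported. A median of 0.04 is near equal scores, but it rests on 6 regions. With lists of equal length, which left 9 regions in both, the median was -0.37. The lean toward replicate 2 was thus absent with the better-scoring 50% and kept with lists of equal length. Cluster gaps of at most 5 kb divided the upstream cluster, leaving at most 2 regions together, against 7 at 10 kb and at 20 kb. With a 50% reciprocal overlap 11 regions were shared, and with lists of equal length 9 were. In each of these 2 settings 6 of the shared regions were upstream, against 7 as reported. The upstream share stayed at 50.0% in each list alone and with the border moved by 10 kb either way. Neither alternative could have changed it. Both moved borders fall in the stretch without peaks, and each list had 8 of its 16 peaks upstream. These values count among the 19 that kept close, but they say nothing on stability. The equal-length setting for the score ratio was added after seeing the data. Closeness meant within 1.5 times for a count, within the Wilson interval for a share with a partner, within the SD over replicates (0.0) for the upstream share and within 1 SD over the 12 pairs for the score ratio. The Wilson interval is wide, from 50.5 to 89.8%, so large shifts in the share with a partner counted as close. In replicate 2 this share fell from 75.0% to 56.2% with lists of equal length and to 60.0% with the better-scoring 50%. In replicate 1 it was 81.8% and 75.0% in these settings. The shares over all peaks in these settings are not given here. These values are therefore not set against the shares of the full lists. With 1 list per replicate and no read counts, the precision of each score is unknown. No paired analysis was possible because no vector peak list was used. The motif alternative was not run.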
